A study of Mus musculus with 20 samples.

Results

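The genotype difference in the PHZ response was the PHZ effect in Srsf2 P95H CFU-E minus the PHZ effect in Mx1-Cre control CFU-E, taken gene by gene. It used all 20 libraries, and its members were the 10890 of 37748 gene entries that reached 1 in 5 or more libraries. CFU-E, colony-forming units-erythroid, are committed red cell progenitors, and the difference tells which parts of their answer to anaemia were blunted, enhanced or kept in the mutant. Phenylhydrazine (PHZ) lyses red cells, and PBS is the saline vehicle. The 4 groups were P95H with PHZ, P95H with PBS, Mx1-Cre with PHZ and Mx1-Cre with PBS, with 5 libraries in each. PHZ was injected under the skin on day 0 and again on day 1, at 30 mg/kg, and bone marrow CFU-E were sorted on day 4 as lineage-negative cells with high c-kit that were positive for CD105 and negative for CD150, CD16/32, CD41 and Sca-1. P95H mice carried 1 mutant allele of the splicing factor Srsf2 on top of Mx1-Cre, which the controls carried alone. The interferon-inducible Mx1 promoter drives Cre in this transgene and is active beyond blood cells; how Cre was induced and the age of the mice are not given in the sources used here. Every library carries its own animal number.

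When red cells are lost, the kidney releases erythropoietin (EPO), whose receptor on CFU-E activates the kinase JAK2 and the transcription factor STAT5. STAT5 raises survival genes, feedback inhibitors of the Cish and Socs families and the hormone erythroferrone, which frees iron stores. Progenitors under this drive also take up iron and build ribosomes, membranes and haem as they divide. SRSF2 binds exonic splicing enhancers in pre-mRNA, and its P95H change alters which motifs it prefers.

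Values are a normalised signal of the form of TPM, a length-corrected measure. Effects are differences of log2(value + 1) with the standard error (SE) of a limma fit over all 4 groups, and a gene was called where the Benjamini-Hochberg adjusted p over the 10890 genes was below 0.05. The interaction is the P95H effect minus the Mx1-Cre effect, so for an induced gene a negative interaction means a smaller rise in P95H, and for a lowered gene a negative one means a deeper fall. Read counts are not part of the deposited signal, and the number of reads under a given value is therefore unknown. The sums per library ran from 924763 to 967303 in P95H PHZ, from 969270 to 1085047 in P95H PBS, from 954407 to 1035490 in Mx1-Cre PHZ and from 997060 to 1069006 in Mx1-Cre PBS.

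The libraries matched their CFU-E label. All 11 identity markers, among them Kit, Eng, Gata1, Klf1, Epor, Tfrc, Tal1, Hemgn, Car1 and Car2, were expressed in every library, the lowest single value being 40.9, for Kit. The 10 genes marking cells that the sort removes summed to 7.82 to 10.4 in P95H PHZ, 11.7 to 22.3 in P95H PBS, 7.26 to 12.4 in Mx1-Cre PHZ and 12.2 to 16.4 in Mx1-Cre PBS. Granulocyte and monocyte RNA was highest in P95H PBS replicates 3, 4 and 5. The mean log2 value of 23 markers was 3.40, 2.99, 4.07, 4.60 and 4.75 in P95H PBS replicates 1 to 5. It ran from 1.88 to 2.97 in P95H PHZ, from 1.71 to 3.59 in Mx1-Cre PHZ and from 2.81 to 3.66 in Mx1-Cre PBS. Xist, the X-inactivation RNA, was above 10 in 3 P95H PHZ, 2 P95H PBS, 2 Mx1-Cre PHZ and 3 Mx1-Cre PBS libraries, and Y-linked genes were expressed in the complement.

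No gene was called for a genotype difference in its PHZ response. Of 10890 genes tested with limma, 0 (0%) passed and the lowest adjusted p was 0.798. At an unadjusted p below 0.05 there were 577 genes (5.30%), 194 positive (1.78%) and 383 negative (3.52%). The interaction was negative for 6283 of the 10890 genes (57.7%). Of the 2405 genes that rose by the mean PHZ effect of both genotypes, 1501 had a negative interaction (62.4%, with a median of -0.04). The interaction was positive for 1069 of the 2680 genes that fell by that effect (39.9%), the others being negative. Of the 101 that fell by more than 1, 26 had a positive interaction (25.7%). The negative counts of the gene lists are to be read beside these shares. The median interaction over all genes was -0.03, running from -0.03 to 0.03 over the scalings, its median size was 0.0976 and its median SE 0.117. The 95% interval lay within 0.5 of 0 on the log2 scale for 8563 genes (78.6%) and within 1 for 10545 (96.8%). The intervals of 345 genes reached past 1, and precision followed level: the median SE was 0.0931 for the 1682 genes with a mean value of at least 100 and 0.179 for the 1239 with a mean below 2.

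With limma, in P95H 1371 genes rose (12.6%) and 1923 fell (17.7%), and in Mx1-Cre 1856 rose (17.0%) and 1618 fell (14.9%). With the authors' factor per library divided out, the same counts were 2583 and 1108 in P95H and 2236 and 1215 in Mx1-Cre, so the share of rises moved with the scaling. Called in both genotypes in the same direction were 2204 genes (20.2%), and 0 were called in opposite directions (0%). Since the P95H and Mx1-Cre effects share no library, their likeness can be described: across all 10890 genes, which are not independent replicates, Pearson's r was 0.871 and Spearman's rho 0.788. The orthogonal slope of the P95H on the Mx1-Cre effect was 1.05.

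**Figure D1:**
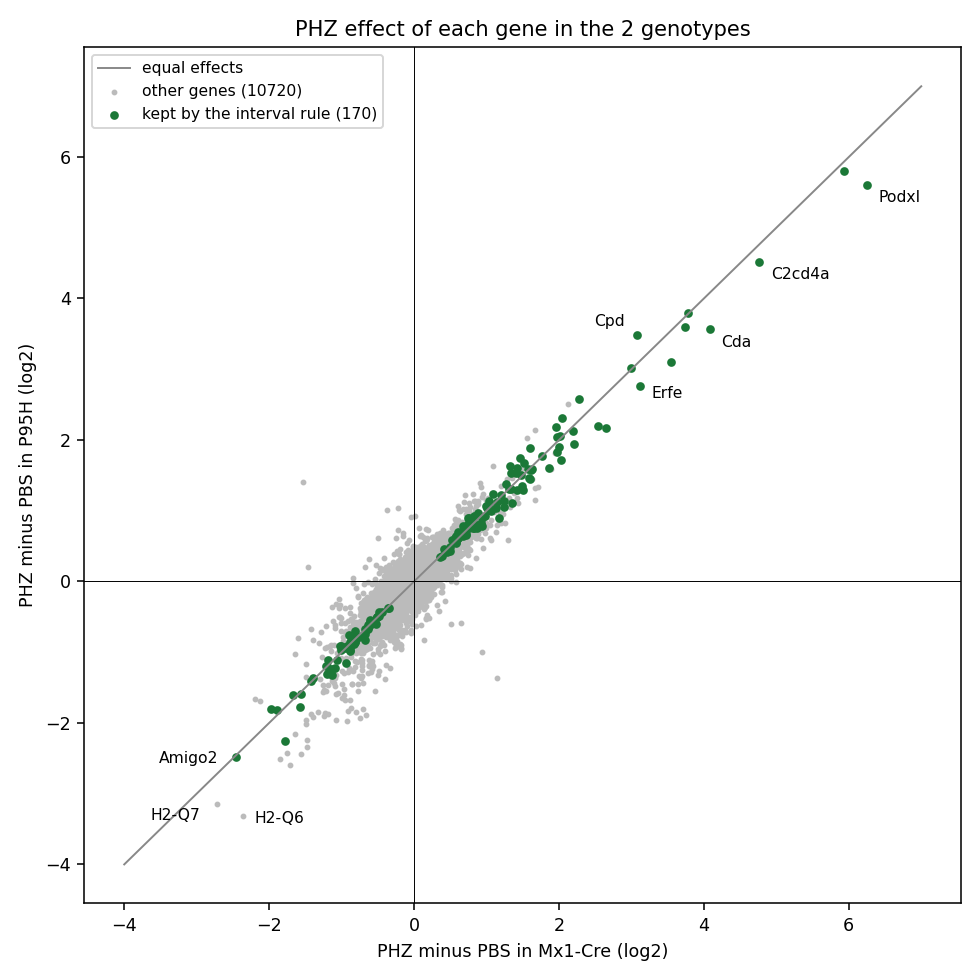
PHZ minus PBS on the log2(value + 1) scale in P95H (vertical axis) against Mx1-Cre (horizontal axis), each point a gene, with the line of equal effects. The 170 genes of a kept response are green, and the other genes of the 10890 are grey. Points follow the line from H2-Q6 and H2-Q7 at the lower left to Podxl at the upper right.

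A response was termed kept where PHZ was called in both genotypes in the same direction and the 95% interval of the interaction lay within 0.5 times the size of the mean PHZ effect on either side of 0. By this rule 170 of the 2204 shared responses were kept (7.71%), 105 of them induced and 65 lowered. Another 2034 were undecided, as their intervals reached past that bound. Some intervals were too wide for the size of the effect, and in other genes the estimate itself lay past the bound. Eldr, for example, had an interaction of 0.53 on a mean PHZ effect of -0.77. The median size of the mean PHZ effect was 0.922 in kept genes against 0.360 in undecided ones, so the rule resolved large responses more often than small ones. Blunted or enhanced responses, which need a called interaction, numbered 0 and 0.

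Among genes called for the mean PHZ effect of both genotypes, 194 moved by more than 1. All 93 induced ones were called in both genotypes and 57 were kept (61.3%), with a median rise of 1.45 in P95H and 1.42 in Mx1-Cre. Of the 101 lowered ones 75 were called in both, 24 in P95H alone, 0 in Mx1-Cre alone and 2 in neither, and 18 were kept. Their median change was -1.45 in P95H and -1.15 in Mx1-Cre. Choosing genes by the mean PHZ effect is independent of the interaction only where all groups vary alike. Over the lowered genes the SD of the library means was 0.31 in P95H PBS and 0.07 in Mx1-Cre PBS. Part of the deeper P95H fall of the lowered genes may therefore follow from the choice.

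The 10 most induced genes by the naming rule were all kept, and their P95H effects were between 87.3% and 113% of their Mx1-Cre effects on the log2 scale. Podxl, which encodes the surface sialomucin podocalyxin, was the most induced gene by the mean PHZ effect of both genotypes (chr6:31519488-31563981, minus strand, GRCm38). It had 232, 246, 211, 166 and 165 in the 5 P95H PHZ libraries, against 3.99, 1.2002, 7.604, 5.18 and 1.12 in P95H PBS. The Mx1-Cre PHZ libraries had 181, 215, 242, 196 and 167, against 2.53, 1.61, 1.85, 0.237 and 2.87 in Mx1-Cre PBS. PHZ and PBS libraries did not overlap in either genotype, as for 17.6% of tested genes in P95H and 22.4% in Mx1-Cre. The rise was 5.61 ± 0.36 (SE) in P95H and 6.25 ± 0.36 in Mx1-Cre, and the interaction was -0.64 (95% interval -1.71 to 0.43).

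Erfe, the gene of erythroferrone (chr1:91366430-91374217, plus strand), had 30.7, 23.7, 23.4, 9.93 and 18.7 in P95H PHZ libraries, against 2.27, 0.718, 3.27, 3.97 and 1.44 in P95H PBS. In Mx1-Cre it had 26.1, 21.2, 26.9, 19.3 and 15.1 with PHZ, against 2.55, 1.4997, 1.68, 0.453 and 2.2000 with PBS. All PHZ libraries lay above all PBS libraries. Its rise was 2.76 ± 0.31 in P95H and 3.12 ± 0.31 in Mx1-Cre, with an interaction of -0.36 (-1.28 to 0.56). Fabp5, a fatty acid carrier, had the narrowest interval of the 10. It had 628, 685, 753, 610.2 and 672 in P95H PHZ, against 54.7, 51.1, 67.7, 54.7 and 45.3 in P95H PBS, and 546, 642, 704, 729 and 640.4 in Mx1-Cre PHZ, against 55.3, 49.3, 50.3, 30.7 and 58.2 in Mx1-Cre PBS. Its interaction was -0.14 (-0.54 to 0.25) on rises of 3.60 in P95H and 3.74 in Mx1-Cre.

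Plek2, an actin-binding relative of pleckstrin that acts downstream of JAK2 in erythroid cells, had 42.1, 29.99, 38.4, 21.9 and 38.8 in P95H PHZ, against 1.698, 1.38, 2.29, 1.75 and 0.614 in P95H PBS. Its Mx1-Cre libraries had 30.2, 23.4, 27.2, 31.1 and 21.6 with PHZ, against 1.27, 0.866, 1.43, 0.302 and 1.399 with PBS. The rises were 3.79 ± 0.20 in P95H and 3.78 ± 0.20 in Mx1-Cre. The interaction had an interval of -0.58 to 0.61. Fam124a was the 1 gene of the 10 whose interval did not hold 0 (-0.89 to -0.01, unadjusted p 0.0473, limma adjusted p 0.798). It reached 17.3 to 29.7 in P95H PHZ, against 1.24 to 2.51 in P95H PBS, and 19.8 to 23.8 in Mx1-Cre PHZ, against 0.421 to 1.41 in Mx1-Cre PBS.

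The other 5 strongly induced genes were also kept. C2cd4a rose by 4.52 in P95H and 4.77 in Mx1-Cre, and Cda, the pyrimidine-salvage enzyme cytidine deaminase, by 3.56 in P95H and 4.08 in Mx1-Cre. Cpd, which encodes carboxypeptidase D, rose by 3.48 in P95H and 3.08 in Mx1-Cre. For the sugar-chain-extending enzyme gene B3gnt7 the rises were 3.02 in P95H and 3.00 in Mx1-Cre, and for the amyloid precursor gene App 2.58 in P95H and 2.28 in Mx1-Cre. Their interaction intervals all held 0, from -1.11 to 0.07 for Cda to -0.40 to 1.01 for App. Tcrg-C1, a receptor segment outside the naming rule that was added after its values were seen, was kept with rises of 5.80 in P95H and 5.94 in Mx1-Cre.

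**Figure D2:**
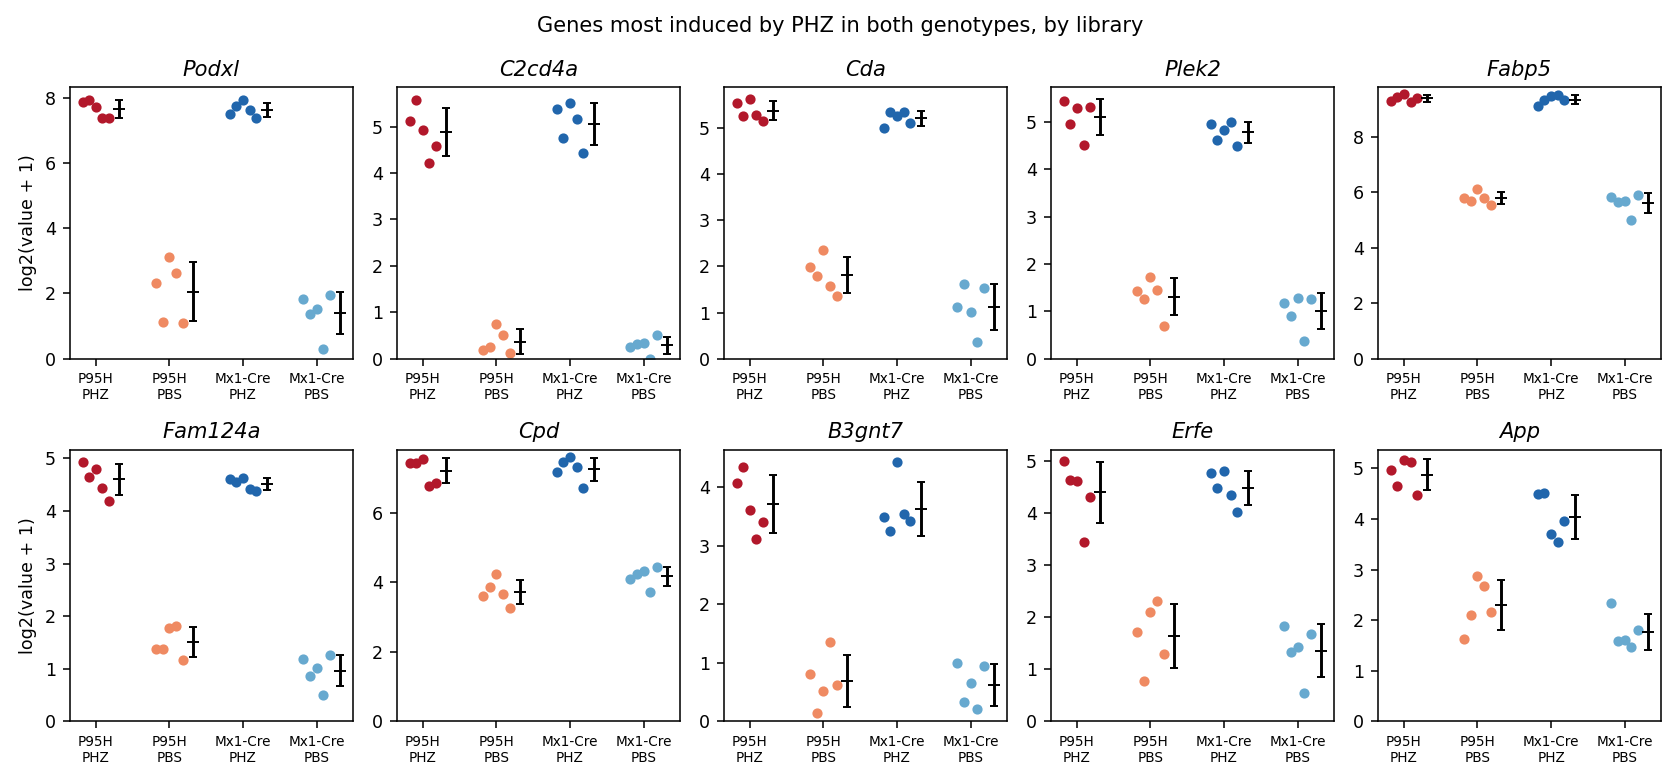
Log2(value + 1) of the 10 genes most induced by PHZ in both genotypes, 1 point per library, with mean and SD beside the points; in each panel P95H PHZ, P95H PBS, Mx1-Cre PHZ and Mx1-Cre PBS run left to right. In all 10 panels the PHZ points of both genotypes lie at like heights above their PBS points.

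The EPO and STAT5 list had 25 genes, of which 19 passed the filter. PHZ raised 10 and lowered 4 in P95H, and raised 11 and lowered 2 in Mx1-Cre, with 12 called alike in both and 4 of these kept, Podxl, Erfe, Socs2 and Ccnd2. The median interaction of the 19 was -0.04, beside -0.03 over all genes, and the sign of the list's median changed with the scaling. Socs2, a STAT5-induced inhibitor of cytokine signalling, had 4.95, 6.12, 6.67, 4.7996 and 6.83 in P95H PHZ, against 1.04, 1.46, 1.75, 1.06 and 1.25 in P95H PBS. In Mx1-Cre it had 3.41, 4.705, 4.39, 6.096 and 3.48 with PHZ, against 0.799, 0.735, 0.657, 0.529 and 1.07 with PBS. Its interval was -0.42 to 0.34 around -0.04, on rises of 1.57 in P95H and 1.61 in Mx1-Cre. Ccnd2, the G1 cyclin D2, rose by 1.35 in P95H and 1.48 in Mx1-Cre and had an interaction of -0.13 (-0.62 to 0.36).

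Cish, another STAT5-induced feedback inhibitor, was undecided. It had 27.4, 16.01, 16.8, 8.704 and 13.4 in P95H PHZ, against 1.62, 1.997, 2.896, 2.504 and 0.911 in P95H PBS, and 14.2, 6.9996, 18.99, 9.16 and 4.09 in Mx1-Cre PHZ, against 2.17, 1.22, 1.32, 0.464 and 2.41 in Mx1-Cre PBS. The interaction was 0.38 (-0.63 to 1.40). The survival kinase gene Pim1 rose by 1.23 in P95H and 0.82 in Mx1-Cre, and Osm, which encodes oncostatin M, by 1.58 in P95H and 1.48 in Mx1-Cre. Pim3, a kinase gene of the same family, had the list's smallest unadjusted p (0.0465). It was called in Mx1-Cre, at 0.37, and its P95H difference was 0.03. Among the pathway's own components, the kinase gene Jak2 fell by 0.32 in P95H and by 0.54 in Mx1-Cre, with an interaction of 0.22 (-0.08 to 0.52). Tfrc, the transferrin receptor through which CFU-E import iron, rose by 0.75 in P95H and 0.89 in Mx1-Cre. It reached 675 to 718 in P95H PHZ, against 275 to 484 in P95H PBS, and 574 to 761 in Mx1-Cre PHZ, against 320.1 to 413 in Mx1-Cre PBS.

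Genes of sterol supply mostly rose in both genotypes, with smaller point estimates in P95H. Of 26 genes of cholesterol synthesis and uptake 25 passed the filter, and 23 of these had a negative interaction. PHZ raised 19 in P95H and 21 in Mx1-Cre and lowered 0 in either, with median effects of 0.54 in P95H and 0.69 in Mx1-Cre and a median interaction of -0.20. The median stayed negative under each scaling tried (-0.20 to -0.14) and when any 1 library was left out (-0.29 to -0.08). No member had an unadjusted p below 0.05 for the interaction, by limma, and 0 of the 19 shared responses were kept. Without P95H PBS replicates 4 and 5, PHZ raised 11 of the 25 in P95H and 21 in Mx1-Cre. With the granulocyte marker covariate it raised 8 in P95H and 21 in Mx1-Cre. The median interaction was -0.26 without those libraries and -0.21 with the covariate. Leaving out P95H PBS libraries lowers precision mainly for P95H. The covariate itself moved with PHZ, from 3.96 to 2.46 in P95H and from 3.18 to 2.40 in Mx1-Cre. Adding it can therefore lower precision too, more for P95H than for Mx1-Cre. Fewer P95H calls under either setting do not by themselves show a weaker P95H response. With the factor per library divided out PHZ raised 23 in P95H and 22 in Mx1-Cre.

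Sqle, the squalene epoxidase gene, had 51.9, 51.003, 54.2, 50.996 and 58.2 in P95H PHZ, against 43.1, 36.3, 40.8, 31.7 and 37.2 in P95H PBS. Its Mx1-Cre libraries had 58.6, 67.3, 77.99, 66.8 and 59.1 with PHZ, against 45.1, 38.7, 41.2, 28.3 and 44.2 with PBS. The treatments did not overlap in either genotype. The rise was 0.49 ± 0.10 in P95H and 0.74 ± 0.10 in Mx1-Cre (interaction -0.25, -0.56 to 0.06, unadjusted p 0.109). Hmgcs1, which makes the mevalonate precursor HMG-CoA, was called in Mx1-Cre (0.59) and not in P95H (0.28, adjusted p = 0.0593), and the interaction between these was not called (-0.31, -0.64 to 0.02). Replicate 4 was the lowest Mx1-Cre PBS library for Sqle and for Stard4, the gene of a sterol carrier. Its mean log2 value over the cholesterol list was 3.89, against 4.34 to 4.62 in the other Mx1-Cre PBS libraries. A low PBS library makes the Mx1-Cre rise larger.

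Ribosome biogenesis genes, which make and assemble rRNA, were raised in 13 of 45 cases in P95H, where 1 fell, against 31 in Mx1-Cre. Median effects were 0.10 in P95H and 0.27 in Mx1-Cre. The median interaction was -0.14, 40 of 45 were negative, and all 7 with an unadjusted p below 0.05 were negative. Nop16, a nucleolar protein gene, had 98.997, 98.2, 84.5, 95.4 and 70.8 in P95H PHZ, against 102, 75.97, 85.6, 89.8 and 92.4 in P95H PBS, and 101, 97.9, 118, 96.4 and 119 in Mx1-Cre PHZ, against 91.7, 81.2, 81.9, 83.1 and 94.9 in Mx1-Cre PBS. Its Mx1-Cre PHZ libraries lay above the PBS ones while the P95H groups overlapped (interaction -0.29, -0.55 to -0.02). Heatr1, which is needed for rRNA transcription and processing, rose in both, by 0.39 in P95H and 0.60 in Mx1-Cre. The difference in the number of calls is not a test of the difference between genotypes, and the interaction was not called for any of the 45. The number raised in P95H moved with the settings. It was 23, against 33 in Mx1-Cre, with the factor per library divided out, and 2, against 25, with the granulocyte marker covariate. It was 7, against 29, without P95H PBS replicates 4 and 5, which lowers precision mainly for P95H. The covariate can also lower precision more for P95H than for Mx1-Cre.

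Oxidative phosphorylation genes, which encode the respiratory chain and ATP synthase, fell in 47 of 75 cases in P95H and in 14 in Mx1-Cre, where 2 rose, against 0 in P95H. All 75 had a negative interaction (median -0.13), 9 of them with an unadjusted p below 0.05. The median changes were -0.22 in P95H and -0.07 in Mx1-Cre. Ndufs4, a complex I subunit gene, had 99.8, 109, 91.9, 106 and 97.4 in P95H PHZ, against 147, 139.6, 127, 135 and 125 in P95H PBS. In Mx1-Cre it had 112, 107, 118, 109 and 123 with PHZ, against 132, 123, 130.02, 134 and 135 with PBS. It fell in both genotypes without overlap of the treatments, with an interaction of -0.21 (-0.38 to -0.05, unadjusted p 0.0125). Of 79 cytosolic ribosomal protein genes 65 fell and 1 rose in P95H, and 45 fell and 6 rose in Mx1-Cre, with a median interaction of -0.12. Both medians moved with the scaling, from -0.13 to -0.05 for the respiratory genes and from -0.12 to -0.03 for the ribosomal protein genes. With the factor divided out, 27 of the 75 respiratory genes fell in P95H and 13 in Mx1-Cre, and with the granulocyte marker covariate 12 in P95H and 7 in Mx1-Cre. Of the ribosomal protein genes 60 fell in P95H and 45 in Mx1-Cre with the factor divided out. Without P95H PBS replicates 4 and 5, 50 fell in P95H and 47 in Mx1-Cre, and with the covariate 10 in P95H and 12 in Mx1-Cre. Both of the last 2 settings can lower precision more for P95H than for Mx1-Cre.

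Stress and protein-quality lists also had negative medians. Serine, folate and ATF4 targets, which the integrated stress response switches on, rose in 12 of 25 cases in P95H and 17 in Mx1-Cre (2 fell in P95H and 1 in Mx1-Cre), with a median interaction of -0.12. They rose in 18 cases in P95H and 18 in Mx1-Cre with the factor divided out, and without Mx1-Cre PBS replicate 4 the median was -0.04. Of these Mthfd2, a mitochondrial folate enzyme gene, was kept. It had 157, 144, 141, 104 and 122 in P95H PHZ, against 56.4, 51.6, 60.6, 47.03 and 52.5 in P95H PBS, and 131, 121, 144, 135 and 119.9 in Mx1-Cre PHZ, against 50.8, 52.2, 51.8, 31.9 and 57.6 in Mx1-Cre PBS. Its interval was -0.50 to 0.24 on rises of 1.29 in P95H and 1.42 in Mx1-Cre. Nupr1, a stress-induced chromatin regulator gene, was the other kept member, at 1.46 in P95H and 1.58 in Mx1-Cre. Unfolded protein response genes rose in 5 of 24 cases in P95H and 15 in Mx1-Cre (median interaction -0.13). With the factor divided out they rose in 15 in P95H and 15 in Mx1-Cre. They rose in 2 in P95H and 15 in Mx1-Cre without P95H PBS replicates 4 and 5, which lowers precision mainly for P95H. Proteasome subunit genes rose in 2 of 31 cases and fell in 2 in P95H, and rose in 11 and fell in 0 in Mx1-Cre (median interaction -0.12). With the factor divided out they rose in 11 in P95H and 14 in Mx1-Cre. The heat shock chaperones rose in 3 of 23 cases and fell in 3 in P95H, and rose in 9 and fell in 1 in Mx1-Cre (median interaction -0.15, running to -0.07 over the scalings). With the factor divided out they rose in 5 and fell in 0 in P95H, and rose in 14 and fell in 0 in Mx1-Cre. With the granulocyte marker covariate, rises in P95H numbered 8 for the serine, folate and ATF4 targets, 1 for the unfolded protein response, 0 for the proteasome and 0 for the chaperones, against 15, 7, 12 and 8 in Mx1-Cre in the same order. As the covariate can lower precision more for P95H, these counts do not by themselves show weaker P95H responses. The ATF4 transcription factor gene Atf4 differed by -0.06 in P95H and 0.23 in Mx1-Cre, neither called.

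Lists of erythroid identity and products, of the cell cycle and of mTORC1 and Src signalling had these median interactions: 0.07 for haem synthesis and globins, 0.06 for red cell membrane proteins, 0.05 for mitosis, -0.03 for erythroid transcription factors, -0.04 for DNA replication, -0.04 for mTORC1 pathway components, -0.05 for Src family kinases and their regulators and -0.08 for the 11 CFU-E identity markers. The last 5 of these medians changed sign with the scaling. The first 3 ran up to 0.14 for haem synthesis and globins, 0.13 for red cell membrane proteins and 0.13 for mitosis over the scalings. The median over all genes also moved, to 0.03 with the factor divided out. Without P95H PHZ replicate 5 the median was -0.01 for haem synthesis and globins and -0.03 for red cell membrane proteins. The Src kinase gene Fyn was not called for PHZ in either genotype and had an interaction of -0.05 (-0.33 to 0.23). Castor1, an arginine sensor upstream of mTORC1, was kept. It had 3.91, 3.899, 4.53, 4.12 and 4.02 in P95H PHZ, against 0.997, 1.02, 1.32, 1.498 and 0.553 in P95H PBS, and 3.38, 3.12, 4.203, 3.49 and 4.12 in Mx1-Cre PHZ, against 1.19, 1.12, 0.749, 0.723 and 0.527 in Mx1-Cre PBS. Pag1, an adaptor that recruits the Src inhibitor Csk, was kept too, with rises of 0.93 in P95H and 0.82 in Mx1-Cre and an interval of -0.19 to 0.40. Klf1, a master erythroid transcription factor gene, fell by 0.22 in P95H; its Mx1-Cre difference was below 0.01 in size, and the interaction (-0.22, -0.42 to -0.02) was not called. Srsf2 itself had 590.1, 567, 610.3, 599 and 564 in P95H PHZ, against 648, 563, 604, 693 and 605 in P95H PBS, and 698, 631, 673, 695 and 727 in Mx1-Cre PHZ, against 727, 646, 689.9, 656 and 677 in Mx1-Cre PBS, with an interaction of -0.10 (-0.26 to 0.06). These values sum both alleles and do not check the P95H label.

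**Figure D3:**
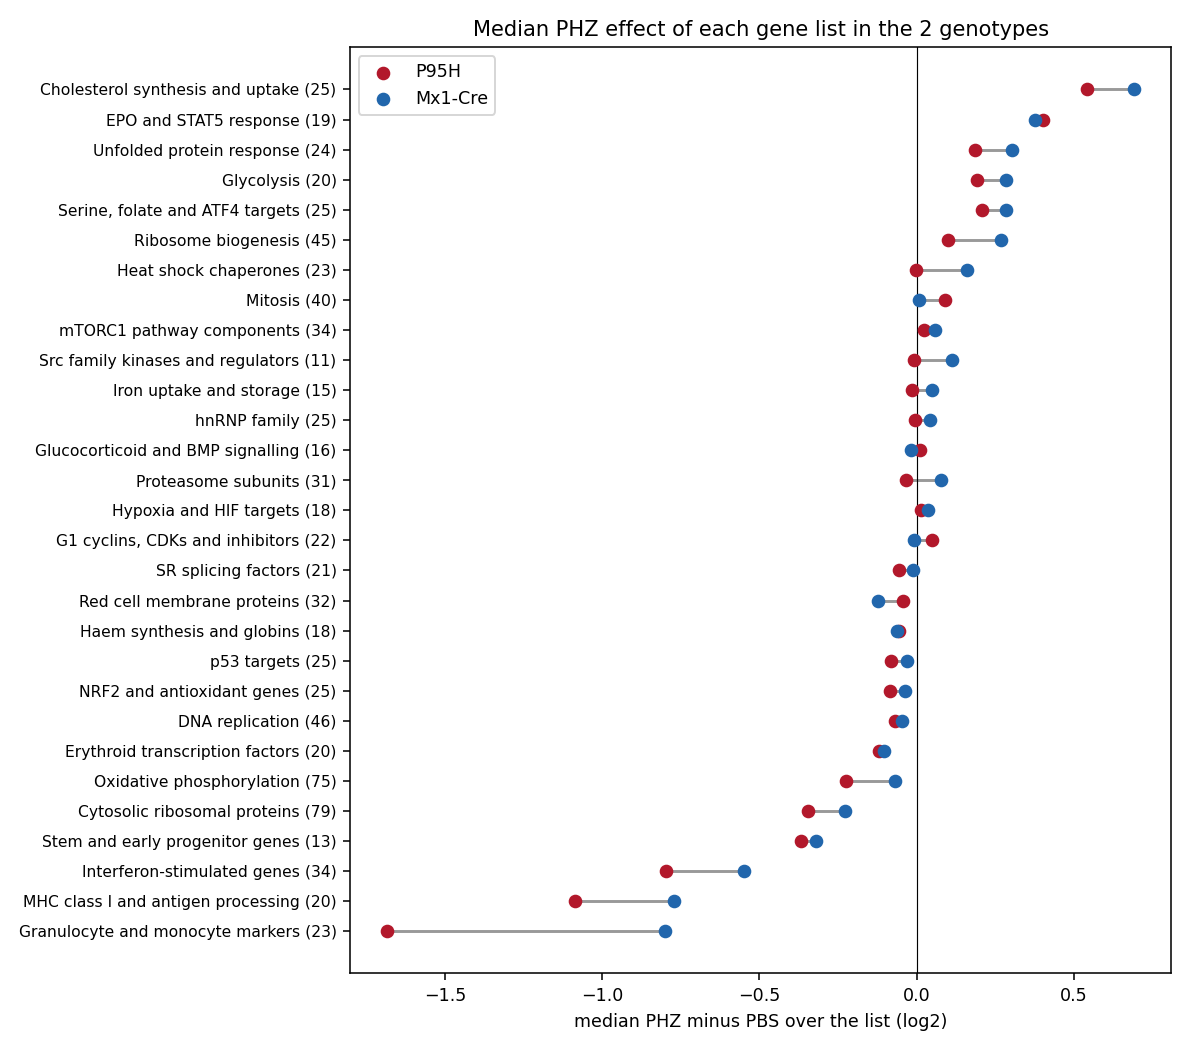
Median PHZ minus PBS (log2) over the members of each gene list that passed the filter (their number in brackets), red for P95H and blue for Mx1-Cre, ordered by the mean PHZ effect. Cholesterol genes lead at 0.54 in P95H and 0.69 in Mx1-Cre, and granulocyte and monocyte markers end the order at -1.68 in P95H and -0.80 in Mx1-Cre.

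Of the 75 genes lowered by more than 1 and called in both genotypes, 19 undecided and 1 kept were interferon-response or antigen-presentation genes, which sense and display infection. Many interferon-stimulated genes carry an interferon-stimulated response element in their promoter, to which interferon-activated transcription factors bind. The letters GAAANNGAAA, on either strand, were found in the 250 bases before the start of 13 of 26 matched interferon-stimulated genes (50%), against 2.98% of 32851 such windows and 3.09% of 8261 tested genes. Of these, 4 promoters are shown as stretches of 100 bases from RefSeq (GRCm38.p6), 5′ to 3′ on the gene's strand with the matched letters in capitals, because these genes fell with PHZ in both genotypes. They lie at chr4:156200830-156200929 on the minus strand (Isg15), chr7:104465194-104465293 on the minus strand (Trim30a), chr11:58199456-58199555 on the plus strand (Igtp) and chr12:26456518-26456617 on the minus strand (Rsad2).
Isg15: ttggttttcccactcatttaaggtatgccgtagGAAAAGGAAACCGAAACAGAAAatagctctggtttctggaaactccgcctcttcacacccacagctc
Trim30a: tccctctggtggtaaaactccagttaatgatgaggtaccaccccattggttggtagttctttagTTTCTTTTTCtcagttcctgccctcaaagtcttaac
Igtp: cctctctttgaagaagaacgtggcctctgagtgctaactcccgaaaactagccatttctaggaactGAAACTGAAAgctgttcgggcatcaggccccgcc
Rsad2: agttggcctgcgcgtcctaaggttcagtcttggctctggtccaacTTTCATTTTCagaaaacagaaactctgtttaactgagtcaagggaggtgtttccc
Isg15 held 3 overlapping copies and the others 1 each; in Trim30a and Rsad2 the match was on the opposite strand. A match describes the letters and does not show binding. The letters TTCNNNGAA, a STAT5 motif, were found in 0 of 14 matched EPO and STAT5 genes, against 7.02% of all windows, and the sterol-response letters TCACNCCAC in 1 of 18 matched cholesterol genes (5.56%), against 1.05%. TGATGNAA, the letters of the ATF4-bound amino acid response element, stood in 4 of 22 matched serine, folate and ATF4 genes (18.2%), against 3.45%.

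Of 44 interferon-stimulated genes 34 passed the filter. PHZ lowered 28 and raised 0 in P95H, and lowered 23 and raised 2 in Mx1-Cre, with medians of -0.80 in P95H and -0.55 in Mx1-Cre. The median interaction was -0.28 and 29 of 34 were negative, so the point estimates were of a deeper fall in P95H. The genotypes lay farther apart with PBS: the median of P95H minus Mx1-Cre over the list was 0.36 with PBS and 0.10 with PHZ. All 23 shared responses were undecided.

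Isg15, whose ubiquitin-like product tags proteins during antiviral responses, had 4.79, 0.6797, 2.35, 2.43 and 2.81 in P95H PHZ, against 13.2, 14.6, 17.8, 25.2 and 8.36 in P95H PBS. In Mx1-Cre it had 2.99, 3.799, 1.76, 1.86 and 1.804 with PHZ, against 9.98, 8.09, 10.4, 8.29 and 5.67 with PBS. P95H PBS reached higher than Mx1-Cre PBS, and the 2 PHZ groups spanned like ranges. It fell by 2.25 in P95H and by 1.47 in Mx1-Cre, with an interaction of -0.77 (-1.62 to 0.08). Rtp4, an interferon-induced chaperone gene, had 1.42, 0.349, 1.41, 1.603 and 0.451 in P95H PHZ, against 7.17, 7.75, 15.2, 22.1 and 8.08 in P95H PBS. The Mx1-Cre values were 0.386, 0.521, 0.449, 0.333 and 0.626 with PHZ, against 4.27, 5.02, 4.91, 2.54 and 2.71 with PBS. Its interaction of -0.89 (-1.66 to -0.12, unadjusted p 0.0254, adjusted p 0.798) was the most negative of the list. The Mx1-Cre PHZ values of Rtp4 were all below 1, where adding 1 to the value shrinks a change. Its interaction therefore does not give the difference in fold fall. Bst2, which tethers budding viruses, fell by 0.79 in P95H; its Mx1-Cre difference was -0.30 (adjusted p 0.111), and the interaction was -0.49 (-0.91 to -0.07). Of the other promoters shown, Trim30a fell by 1.37 in P95H and 1.14 in Mx1-Cre, Igtp by 1.28 in P95H and 0.91 in Mx1-Cre, and Rsad2 by 0.58 in P95H and 0.70 in Mx1-Cre.

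MHC class I and antigen-processing genes fell in 20 of 20 cases in P95H and 18 of 20 in Mx1-Cre, with medians of -1.09 in P95H and -0.77 in Mx1-Cre and a median interaction of -0.29. All 20 interactions were negative. H2-Q7, a class I gene, was the most lowered gene by the naming rule. It had 11.6, 14.3, 12.2, 17.2 and 14.3 in P95H PHZ, against 115, 106, 166, 257 and 72.8 in P95H PBS, and 11.7, 15.5, 14.4, 7.74 and 13.6 in Mx1-Cre PHZ, against 151, 152, 70.02, 30.1 and 99.9 in Mx1-Cre PBS. All PBS libraries lay above all PHZ libraries, and PBS values varied several-fold within each genotype. H2-Q7 and its neighbour H2-Q6 are near-identical copies, so how their reads were split is uncertain. Nlrc5, the transactivator of class I genes, was the list's kept member. It had 2.11, 1.63, 1.91, 2.04 and 2.31 in P95H PHZ, against 7.48, 8.66, 11.1, 15.1 and 6.12 in P95H PBS, and 2.25, 2.998, 2.23, 1.32 and 2.02 in Mx1-Cre PHZ, against 10.5, 12.3, 7.66, 4.66 and 7.97 in Mx1-Cre PBS (interaction -0.21, -0.83 to 0.41).

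Psme2, a subunit of the proteasome activator PA28, had the list's smallest unadjusted p (0.00293). It had 106, 98.2, 92.001, 116 and 99.8 in P95H PHZ, against 168, 147, 151, 207 and 157 in P95H PBS, and 106, 109.7, 119.7, 108 and 125 in Mx1-Cre PHZ, against 132, 139, 133, 143 and 155 in Mx1-Cre PBS. It fell in both genotypes, by 0.69 in P95H and by 0.30 in Mx1-Cre, and the interaction was -0.38 (-0.62 to -0.15, adjusted p 0.798). P95H PBS replicate 4 was the highest of its group for Psme2, H2-Q7, Nlrc5, Isg15 and Rtp4, and also for Amigo2 and Spon2, which are in neither list. Without that library the median interaction was -0.16 for interferon-stimulated genes and -0.13 for class I genes, and without Mx1-Cre PBS replicate 4 it was -0.20 for both lists. Without P95H PBS replicates 4 and 5 together, the median interaction was -0.22 for interferon-stimulated genes and -0.19 for class I genes, and with the granulocyte marker level as a covariate it was -0.27 for both lists.

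Markers of lymphoid cells, which the sort should also remove, had a negative median interaction too. Of 20 lymphoid markers 5 passed the filter, and PHZ lowered 3 in P95H and 2 in Mx1-Cre, with medians of -1.25 in P95H and -0.71 in Mx1-Cre. Some were near the floor, with medians over all libraries of 0.430 for Cd79a and 0.815 for Nkg7. The filter needs only as many libraries as 1 group holds, so a marker could pass by its P95H PBS values alone. Passing in that way favours a negative interaction, so the sign of the list's median may follow from the filter. The median interaction was -0.46, or -0.20 with the granulocyte marker covariate, -0.23 without P95H PBS replicates 4 and 5 and -0.27 without P95H PBS replicate 3. The genotypes again lay farther apart with PBS, where the median of P95H minus Mx1-Cre was 0.46, than with PHZ, where it was -0.03. The 20 markers, none at 0 in every library, summed to 10.8 to 16.3 in P95H PHZ and 26.6 to 45.2 in P95H PBS, and to 8.75 to 19.96 in Mx1-Cre PHZ and 23.2 to 33.6 in Mx1-Cre PBS. Of 15 megakaryocyte markers 6 passed, and 4 fell in P95H and 4 in Mx1-Cre, with a median interaction of 0.02. Their part in the interferon and class I values was not tested.

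**Figure D4:**
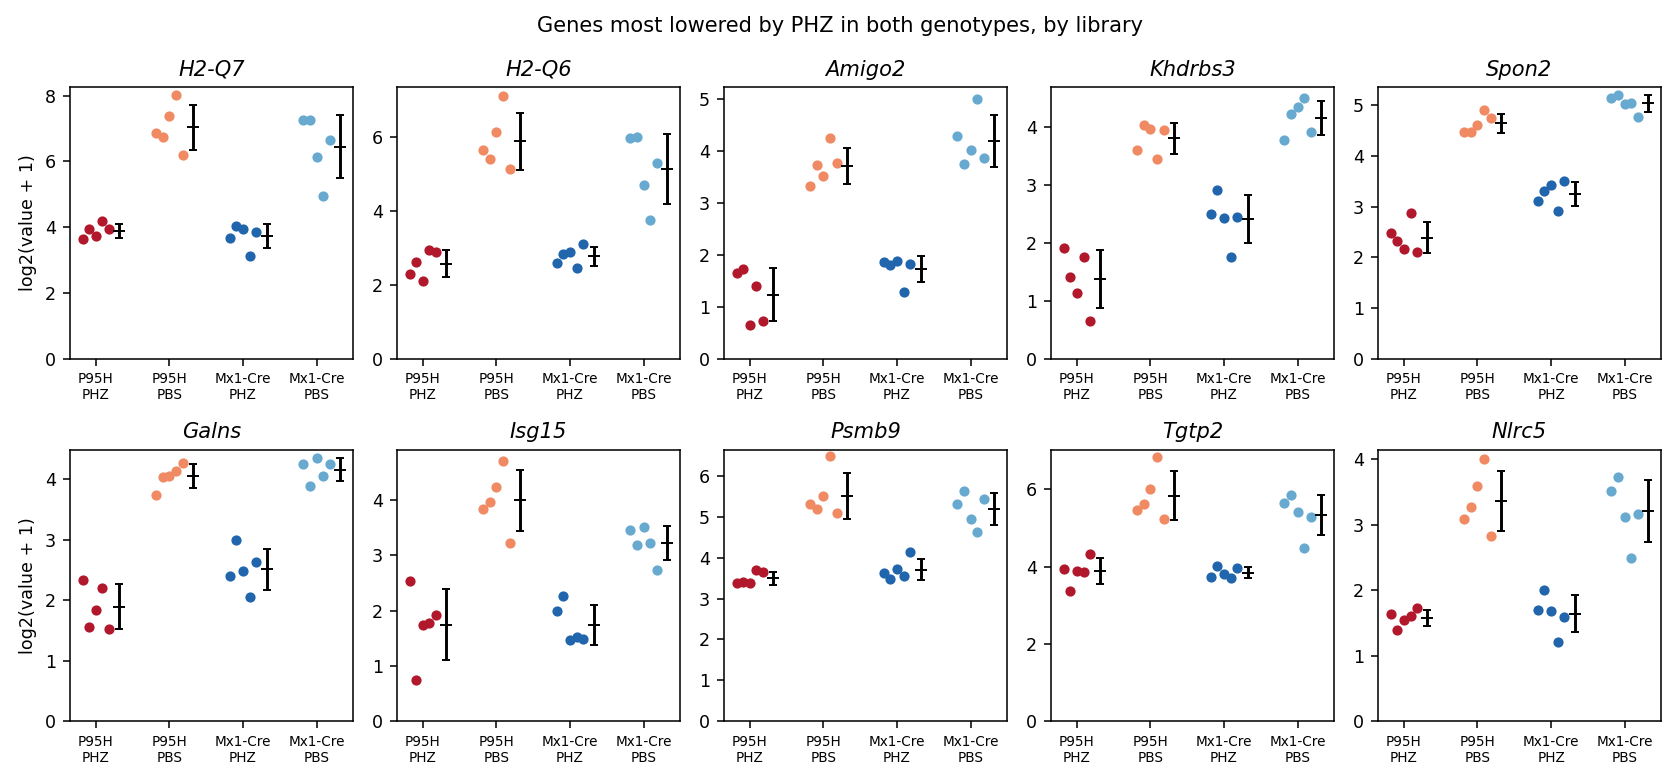
Log2(value + 1) of the 10 genes most lowered by PHZ in both genotypes, 1 point per library, with mean and SD beside the points; in each panel P95H PHZ, P95H PBS, Mx1-Cre PHZ and Mx1-Cre PBS run left to right. P95H PBS replicate 4, the fourth point of its group, is the highest of its group in 8 of the 10 panels, all but Khdrbs3 and Galns.

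Lowered genes outside these lists included kept ones. Amigo2, an adhesion molecule gene, had 2.12, 2.32, 0.573, 1.62 and 0.649 in P95H PHZ, against 8.995, 12.2, 10.4, 18.1 and 12.6 in P95H PBS, and 2.62, 2.47, 2.695, 1.44 and 2.55 in Mx1-Cre PHZ, against 18.4, 12.5, 15.1, 31.1 and 13.6 in Mx1-Cre PBS. It fell by 2.49 in P95H and 2.45 in Mx1-Cre (interaction -0.03, -0.76 to 0.69). Spon2, a secreted matrix protein gene, was kept with a fall of 2.26 in P95H and 1.78 in Mx1-Cre, although its interval did not reach 0 (-0.87 to -0.08, adjusted p 0.798). Khdrbs3, an RNA-binding splicing regulator, fell by 2.43 in P95H and 1.75 in Mx1-Cre and was undecided (-1.34 to -0.02). Its values were 2.75, 1.67, 1.18, 2.38 and 0.574 in P95H PHZ, against 11.2, 15.5, 14.7, 9.91 and 14.4 in P95H PBS, and 4.62, 6.498, 4.38, 2.37 and 4.44 in Mx1-Cre PHZ, against 12.7, 17.8, 19.3, 21.5 and 14.1 in Mx1-Cre PBS. Galns, which encodes a lysosomal sulfatase, fell by 2.16 in P95H and 1.65 in Mx1-Cre (-0.99 to -0.02).

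Granulocyte and monocyte markers had the most negative list median, and they mark cells that the sort should remove. All 23 that passed the filter, of 28, had a negative interaction (median -0.69). A marker could pass the filter by its P95H PBS values alone, and passing in that way favours a negative interaction. PHZ lowered 22 in P95H and 1 in Mx1-Cre, with medians of -1.68 in P95H and -0.80 in Mx1-Cre. The summed value of all 28, of which Lyz1 was at 0 in every library, was 166 to 615 in P95H PHZ and 583 to 2549 in P95H PBS, and 157 to 1108 in Mx1-Cre PHZ and 469 to 987 in Mx1-Cre PBS. S100a9, an abundant neutrophil protein gene, had 133, 51.6, 138, 67.1 and 191 in P95H PHZ, against 261, 192, 461, 588 and 859 in P95H PBS, and 53.4, 63.7, 61.4, 168 and 377 in Mx1-Cre PHZ, against 139, 137, 209, 271 and 320.5 in Mx1-Cre PBS. P95H PBS replicates 4 and 5 were the highest of their group, and Mx1-Cre PHZ replicate 5 overlapped the PBS libraries of its genotype. In these bulk libraries fewer cells of a type and less RNA per cell cannot be told apart.

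Without P95H PBS replicates 4 and 5 together the markers' median interaction was -0.20, and PHZ lowered 2 of the 23 in P95H and 6 in Mx1-Cre. The genes called for PHZ in P95H then numbered 2100 instead of 3294. With fewer P95H PBS libraries the precision for P95H was also lower. Of the 24 lowered genes past 1 that were called in P95H alone, 14 were such markers. Leaving the 15 marker genes out of the 101 lowered ones left a median deepening of the fall in P95H of 0.27, against 0.33 with them. It was 0.20 without P95H PBS replicate 4 alone and 0.19 without replicates 4 and 5. The choice of the lowered genes may add to this deepening, as given above. The part of granulocyte RNA in the other genotype differences was not tested.

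**Figure D5:**
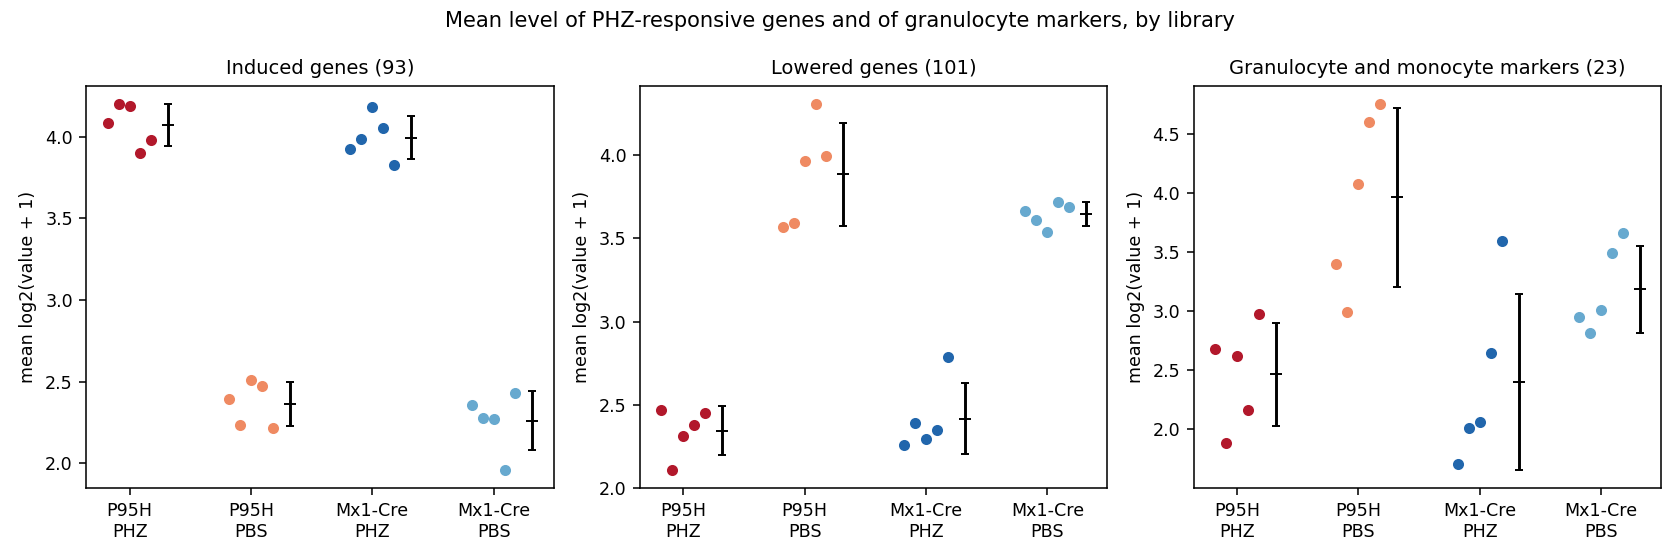
Mean log2(value + 1) per library of the 93 induced genes, the 101 lowered genes and the 23 granulocyte and monocyte markers, with mean and SD beside the points, for P95H PHZ, P95H PBS, Mx1-Cre PHZ and Mx1-Cre PBS from left to right. The induced genes form like steps in both genotypes, and the P95H PBS libraries spread upwards for lowered genes and markers.

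Averaged over the 93 induced genes, the mean log2 value was 4.07 ± 0.13 in P95H PHZ and 2.37 ± 0.14 in P95H PBS, and 4.00 ± 0.13 in Mx1-Cre PHZ and 2.26 ± 0.18 in Mx1-Cre PBS (SD, n = 5 each). The rise was 1.71 in P95H and 1.74 in Mx1-Cre. Over the 101 lowered genes it was 2.34 ± 0.15 in P95H PHZ and 3.89 ± 0.31 in P95H PBS, and 2.42 ± 0.21 in Mx1-Cre PHZ and 3.65 ± 0.07 in Mx1-Cre PBS. The change was -1.54 in P95H and -1.23 in Mx1-Cre. The genotypes' PHZ groups lay within 1 SD of each other on both measures, and the P95H PBS group had the widest spread for lowered genes.

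Among single genes nearest to a genotype difference, none was called, and all had an adjusted p of 0.798. Cd59b, which encodes a surface inhibitor of complement, had the smallest unadjusted p of positive interactions (0.000627; chr2:104069849-104091187, GRCm38). It had 6.69, 5.78, 6.76, 6.08 and 7.78 in P95H PHZ, against 6.902, 8.77, 9.27, 7.39 and 6.74 in P95H PBS. In Mx1-Cre it had 4.11, 5.07, 3.51, 3.54 and 3.599 with PHZ, against 7.96, 6.82, 7.39, 8.13 and 6.83 with PBS. The Mx1-Cre groups did not overlap and the P95H groups did. It fell by 0.77 in Mx1-Cre; the P95H difference was -0.21, and the interaction 0.56 ± 0.14 (0.27 to 0.85). Dock11, an activator of the GTPase CDC42, showed the converse, rising by 0.66 in P95H, with a difference of 0.10 in Mx1-Cre. It had 9.04, 11.3, 12.5, 8.94 and 11.02 in P95H PHZ, against 7.43, 4.84, 5.95, 5.93 and 7.44 in P95H PBS, and 7.56, 8.51, 10.4, 9.58 and 8.68 in Mx1-Cre PHZ, against 6.83, 8.71, 9.21, 8.29 and 8.33 in Mx1-Cre PBS.

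The other 6 positive ones were Eldr, Gas2l3, Sidt2, Tspan15, Akap7 and Arl5a, with interactions between 0.20 and 0.53. Eldr, a noncoding RNA, fell in both genotypes, by 0.51 in P95H and 1.04 in Mx1-Cre, and was undecided. Gas2l3, a cytoskeletal linker, Sidt2, a lysosomal membrane protein, Tspan15, a tetraspanin, and Arl5a, a Golgi GTPase, rose in P95H and were not called in Mx1-Cre. Tspan15 had 9.44, 8.88, 7.92, 8.62 and 11.7 in P95H PHZ, against 5.48, 7.53, 5.92, 4.32 and 3.54 in P95H PBS, and 11.7, 10.9, 11.5, 11.3 and 10.5 in Mx1-Cre PHZ, against 9.55, 9.81, 11.4, 9.25 and 8.32 in Mx1-Cre PBS. The P95H PBS group had the lowest mean of the 4 there, as it had for Dock11, Gas2l3, Sidt2 and Arl5a. Akap7, which anchors protein kinase A, fell by 0.30 in Mx1-Cre and differed by 0.05 in P95H.

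B3galt6, which encodes a galactosyltransferase of the proteoglycan linker, had the smallest unadjusted p of negative interactions (0.000444). It had 9.82, 10.9, 8.58, 9.46 and 7.94 in P95H PHZ, against 13.1, 11.2, 12.1, 12.1 and 12.5 in P95H PBS. Its Mx1-Cre libraries had 13.1, 11.8, 13.2, 13.2 and 13.6 with PHZ, against 11.4, 13.1, 12.1, 13.4 and 11.5 with PBS. It fell by 0.36 in P95H and differed by 0.07 in Mx1-Cre, for an interaction of -0.43 ± 0.10 (-0.65 to -0.21). The other 7 were Rab21, Sac3d1, Spata2, Fam104a, Bag3, Zmynd19 and Wbp4, with interactions between -0.40 and -0.23. Rab21, an endosomal GTPase gene, rose by 0.21 in Mx1-Cre and Zmynd19 by 0.28, and neither was called in P95H. The co-chaperone gene Bag3 and Wbp4, a spliceosomal protein gene, fell in P95H, Bag3 by 0.20 and Wbp4 by 0.15. Zmynd19 had 119, 105, 106, 105 and 98.5 in P95H PHZ, against 109, 99.5, 115, 101 and 105 in P95H PBS, and 123, 122, 122, 122 and 124 in Mx1-Cre PHZ, against 106, 94.7, 101, 92.5 and 109.9 in Mx1-Cre PBS, and its Mx1-Cre treatments did not overlap, while its P95H treatments did.

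The interaction exceeded 1 in size for 15 genes, none of them called. Of these, 5 were sex-linked (Xist, Eif2s3y, Ddx3y, Uty and Kdm5d), whose expressing libraries were unequally shared between the groups, as given above. The interval for Xist ran from -4.22 to 10.10. Granulocyte genes made up another 6, Lyz2, Ltf, Hp, Ngp, S100a9 and Retnlg. Per1, a circadian clock gene that glucocorticoids induce, had 9.99, 10.5, 14.7, 17.2 and 24.7 in P95H PHZ, against 8.04, 9.45, 7.96, 13.5 and 7.86 in P95H PBS, and 12.4, 9.19, 8.67, 11.7 and 9.52 in Mx1-Cre PHZ, against 12.03, 10.7, 10.4, 45.3 and 11.5 in Mx1-Cre PBS. Its interaction of 1.12 (0.15 to 2.09) included a single high Mx1-Cre PBS library, replicate 4.

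Some list members departed from their list. Ccnd1, which encodes the G1 cyclin D1, fell in both genotypes, by 0.80 in P95H and 1.60 in Mx1-Cre on the log2(value + 1) scale. It had 0.173, 0.623, 0.1504, 0.177 and 0.207 in P95H PHZ, against 1.35, 1.22, 1.07, 1.32 and 0.952 in P95H PBS, and 0.466, 1.03, 2.75, 1.13 and 1.26 in Mx1-Cre PHZ, against 5.91, 3.41, 4.52, 7.85 and 8.33 in Mx1-Cre PBS. The interaction was 0.81 (0.21 to 1.41, unadjusted p 0.0108 by limma). Adding 1 to the value shrinks changes of low genes, and the P95H values were near or below 1. The interaction therefore does not show a smaller fold fall in P95H. Cd36, a fatty acid transporter gene of red cell precursors, was called in Mx1-Cre, where it fell by 0.71, and differed by -0.16 in P95H (interaction 0.55, 0.13 to 0.96). Kif23, a cytokinesis motor gene, rose by 0.62 in P95H and differed by 0.25 in Mx1-Cre (0.37, 0.08 to 0.67). Phlda3, a p53 target, fell by 0.59 in P95H and differed by -0.03 in Mx1-Cre (-0.56, -0.98 to -0.15).

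With no filter on low values, 20259 genes were tested and 1 interaction was called, that of Cpne9, a copine gene named here because of this result. It was listed at 0 in all 5 P95H PHZ libraries, against 0.657, 0.954, 0.739, 0.849 and 0.952 in P95H PBS. The Mx1-Cre libraries had 0.495, 0.579, 0.539, 0.568 and 0.459 with PHZ, against 0.496, 0.584, 0.575, 0.626 and 0 with PBS. Its interaction was -0.96 ± 0.14 (SE; limma adjusted p = 0.0276). The highest of its 20 values was 0.954, below the filter's minimum of 1, and an exact 0 in such a table can be a failed estimate.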

How the data were processed

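RNA from sorted bone marrow CFU-E was sequenced in 20 libraries, as paired 150 bp reads per the labels. The deposited table holds 1 normalised signal per gene entry and library. The tools named are TopHat, TopHat2 2.0.8b, Bowtie and RSEM 1.2.4, with no role given, and the builds include GRCm38, per the submitters' processing notes. Every value was a whole step of 0.01 times 1 factor per library (tolerance 0.01, 100% of values), as TPM rounded and then multiplied by a factor of 0.940 to 1.0956 would be. Read counts are not held, so the number of reads behind a given value is unknown. Count tests were not used, and precision was judged from the spread between libraries.

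Genes that reached 1 in 5 or more libraries were tested (10890; 17489 entries were 0 in every library), and log2(value + 1) was fitted with limma 3.58.1 in R 4.3.3, with 4 group means, a variance trend and robust moderation, and Benjamini-Hochberg adjustment over all tested genes at 0.05. Fold changes on this scale understate changes of low genes. Named genes had a mean of at least 5 and were no predicted gene, pseudogene or receptor segment. They were the 10 most induced and 10 most lowered by the mean PHZ effect among genes called in both genotypes, the 8 of smallest interaction p in each direction (none being called), Srsf2 and Fyn, and, from each list described, up to 3 members of smallest interaction p and 2 of largest mean PHZ effect. In a departure from the rule as set down, the minimum mean of 5 was not applied to these list members, of which Castor1, Ccnd1, Nupr1, Retnlg and Rtp4 in the text lie below it. Not every list member that the rule covers is described. Other genes were chosen after their values were seen. The members and the 35 gene lists were chosen with earlier results of these data known. Of 954 list symbols, 948 were found and 821 passed the filter. Alternatives were another scaling (trimmed mean of M-values factors, quantile normalisation, or the factor divided out), pseudocount, filter, variance model, library weights, a replicate block, a granulocyte marker covariate and libraries left out; an Xist covariate and removal of marker genes were added after seeing the data. The fit was tested on simulated data. Promoter sequences came from RefSeq tables on GRCm38.p6. No 2 libraries were identical. P-values measure the spread between libraries, each of which carries its own animal number.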

Additional observations from a re-analysis of the deposited data

Results flagged for a closer look

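In 160 groups of 5 libraries examined, 5 had a library far from the other 4, and chance flags about 1 in 20 groups. Fam104a was at 71.83 in P95H PBS replicate 1, against 51.49 to 56.83 in the other 4 libraries of that group. B3gnt7 was at 20.4 in Mx1-Cre PHZ replicate 3, against 8.542 to 10.56. Amigo2 was at 1.438 in Mx1-Cre PHZ replicate 4, against 2.468 to 2.695. Psmb9 was at 88.22 in P95H PBS replicate 4, against 32.93 to 44.42. The response score, the mean log2 value of the 93 induced genes minus that of the 101 lowered genes, was -1.76 in Mx1-Cre PBS replicate 4, against -1.333 to -1.258 in the other 4.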

How the results depend on the processing

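With no filter on low values 1 interaction was called, that of Cpne9; under every other setting run the limma count was 0. With a filter, the interaction's lowest adjusted p by limma over the settings was 0.526, without P95H PHZ replicate 1. It was 0.580 with library weights, where 840 genes had an unadjusted p below 0.05. With a replicate block it was 0.750, where 624 genes had an unadjusted p below 0.05. Replicate numbers did not pair the libraries: 13 of 30 same-numbered pairs had a correlation of deviations above 0.1, with a mean of 0.0368, against -0.00913 for other pairs. With the granulocyte marker covariate, 1030 genes were called for the PHZ effect in P95H and 2397 for the mean PHZ effect; without P95H PBS replicates 4 and 5 together, 2100 were called for the PHZ effect in P95H. Leaving libraries out of P95H PBS also lowers precision mainly for P95H, and the covariate can do so more for P95H than for Mx1-Cre. The cause of the lower counts was not tested. Leaving out 1 library at a time gave 0 to 0 interactions, 2687 to 3487 PHZ calls in P95H, 2593 to 3588 in Mx1-Cre, 4737 to 5192 for the mean effect, and 132 to 179 kept responses. The interaction signed by the direction of the response ran from -0.018 to 0.026 over responsive genes, from -0.106 to 0.011 over the 93 induced and from 0.203 to 0.417 over the 101 lowered genes. Of 2574 recomputed values of named genes 0 crossed the threshold, and 43 that were not called changed sign. Most of these genes were chosen from the same data by strong PHZ effects or as uncalled interactions. Few could cross the threshold, so this count says little about other genes. The median of 12 of 35 lists changed sign with the scaling. Read counts per gene are unknown, and genes with low values had the widest intervals.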
